A study of Mus musculus with 20 samples.

Results

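The genes described here encode the extracellular matrix of the mouse heart and the enzymes, inhibitors and growth factors that build and remodel it. The list holds 42 genes, of which 12 encode basement membrane proteins, 18 interstitial matrix proteins, 8 remodelling enzymes or inhibitors and 4 growth factors. It was drawn up from gene function, with earlier results of these data known. A probe set bearing the gene's symbol alone was found for 41 of the 42 genes, and all 41 were bright enough to be tested. The remaining interstitial gene was not analysed here. These 41 genes are set beside 22518 tested probe sets, which read 11229 named genes.

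The study compared the left ventricles of 20 male C57BL/6J mice, a common inbred strain, with no surgery, mutation or other injury in any group. Each statin was given to 4 mice as crushed tablets in the chow, in daily doses per kg body weight of 4.5 mg for pitavastatin, 21.0 mg for pravastatin, 10.9 mg for rosuvastatin and 11.4 mg for atorvastatin. A further 4 control mice received the chow alone. Treatment lasted 4 weeks and began after 2 weeks of acclimation in mice bought at an age of 6 weeks. Statins inhibit HMG-CoA reductase, the enzyme that commits cells to making cholesterol and other isoprenoids. Each heart was read on its own Affymetrix Mouse Genome 430 2.0 array, on which a probe set is a group of short probes against the 3′ part of a transcript.

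The cardiac matrix has layers with different makers and roles. Basement membranes, thin sheets of type IV collagen, laminins, nidogens and perlecan, surround each cardiomyocyte and capillary, and endothelial cells and cardiomyocytes contribute to them. The interstitial matrix, made chiefly by fibroblasts, holds the fibrillar collagens that carry load, along with elastin and small proteoglycans. Lysyl oxidases cross-link these fibres, matrix metalloproteinases cut them, and tissue inhibitors of metalloproteinases (TIMPs) hold those proteases in check. Transforming growth factor beta and its target Ccn2, connective tissue growth factor, are classic drivers of fibrosis.

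Levels are given as log2(signal + 16), where the signal is the deposited array value of the brightest probe set of the gene. A difference of 1 on this scale is about a doubling. Differences are statin minus control, each group holding 4 mice. All 4 comparisons use the same 4 control hearts, so a low or high control mouse moves them together. P-values come from limma, a linear model with a pooled estimate of the spread between mice, and carry a Benjamini-Hochberg adjustment over the 22518 probe sets.

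The samples read as heart muscle: the cardiomyocyte gene Myh6, the main adult myosin heavy chain, had signals of 21339 to 53492. Whether the tissue was ventricle rather than atrium was not checked. None of the 4 adipocyte markers with a probe set was bright enough to be tested, their summed signal being 36.3 to 255 over all mice. The rosuvastatin 3 array stood apart as the dimmest, with a median signal of 41.7.  Since all arrays were scaled to a common trimmed mean, dimmest and brightest refer here to the median signal only. The brightest was atorvastatin 2, at 144. These arrays also had the lowest median correlations with the other arrays over the tested probe sets, at 0.926 for rosuvastatin 3 and 0.947 for atorvastatin 2. The 4 rosuvastatin arrays had a median log2 signal of 6.09 ± 0.48, against 6.56 ± 0.26 for control (SD, n = 4 each, exact permutation p = 0.171, adjusted p = 0.914 over 16 tests of array measures). Leaving out rosuvastatin 3 turned the sign of 7 rosuvastatin differences among the 41 genes, and leaving out atorvastatin 2 that of 5 atorvastatin differences. Where the difference from control of one of the 41 genes, by its brightest probe set, moved by over 0.1 without that mouse, the value without it is given beside it. No such values are given for further probe sets or for the other gene lists, so their dependence on these mice is not shown.

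Col4a1 and Col4a2 encode the chains that join into the main type IV collagen trimer of basement membranes. They are neighbours on chromosome 8 and are read in opposite directions. In the RefSeq annotation of the mouse genome build GRCm38.p6 their start sites lie 21 bases apart. The windows running from 250 bases before to 50 bases after each start, at chr8:11312777-11313076 on the minus strand for Col4a1 and at chr8:11312555-11312854 on the plus strand for Col4a2, share 78 bases. They are shown because the levels of these 2 genes varied together across mice, as described further on. Capitals mark the CCAAT box, a common promoter element, written as CCAAT or as its reverse complement ATTGG.
Col4a1: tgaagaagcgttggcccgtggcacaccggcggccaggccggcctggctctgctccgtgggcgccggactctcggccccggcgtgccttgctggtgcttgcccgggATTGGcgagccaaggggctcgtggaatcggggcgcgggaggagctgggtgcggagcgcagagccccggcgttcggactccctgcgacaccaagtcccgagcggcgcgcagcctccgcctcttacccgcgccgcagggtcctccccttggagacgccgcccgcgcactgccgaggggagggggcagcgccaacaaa
Col4a2: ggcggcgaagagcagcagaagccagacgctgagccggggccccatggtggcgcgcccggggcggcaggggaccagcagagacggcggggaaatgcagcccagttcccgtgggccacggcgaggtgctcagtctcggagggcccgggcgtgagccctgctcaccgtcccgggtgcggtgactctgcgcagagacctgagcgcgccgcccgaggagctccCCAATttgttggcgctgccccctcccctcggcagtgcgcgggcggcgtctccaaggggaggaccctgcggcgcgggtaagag
Bases G and C made up 74.0% of the Col4a1 window and 73.7% of the Col4a2 window, against a median of 52.7% over all 32851 promoter windows of the table. Promoter windows were found for 27 of the 41 measured genes, 30 windows in all. A CCAAT box on either strand was present in 12 of these 30 windows (40.0%), against 37.4% of all windows. A GC box, GGGCGG on either strand, was present in 19 of the 30 (63.3%), against 35.7% of all windows. The median GC content was 60% in the 30 windows, and the share of GC boxes was not compared at matched GC content. TATAAA, on either strand, was present in 3 of the 30 windows, against 13.6% of all. These matches describe the letters only, not binding.

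No matrix gene passed an adjusted p of 0.05 in any statin group. Averaged over the 41 genes, the level was 9.95 to 10.01 in the 4 pravastatin hearts, all below the 10.03 to 10.11 of the 4 control hearts. It was 9.86 to 10.12 in atorvastatin hearts, 9.99 to 10.12 in pitavastatin hearts and 10.02 to 10.20 in rosuvastatin hearts, each range overlapping control. The highest rosuvastatin value was that of rosuvastatin 3 and the lowest atorvastatin value that of atorvastatin 2. In pitavastatin hearts 24 of the 41 genes lay below control, where 51.0% of all tested probe sets did. The counts were 30 of 41 in pravastatin (55.0% of all probe sets), 18 of 41 in rosuvastatin (54.1%) and 29 of 41 in atorvastatin hearts (56.1%). The median difference of the 41 genes was lowest in pravastatin hearts, at -0.11, then -0.10 in atorvastatin hearts, -0.03 in pitavastatin hearts and 0.04 in rosuvastatin hearts. Without atorvastatin 2 the atorvastatin median was -0.04. The median of all tested probe sets lay between -0.03 and -0.003 in the 4 comparisons. The 95% confidence interval of a matrix gene reached a median of 0.32 to either side of its difference, from 0.15 for the steadiest gene to 1.31 for Vcan.

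The class medians describe these mice and were not tested. In pravastatin hearts the median difference was -0.09 over the basement membrane genes, -0.15 over the interstitial genes and -0.22 over the remodelling genes. Here 9 of 12 basement membrane, 14 of 17 interstitial and 5 of 8 remodelling genes lay below control. In atorvastatin hearts the medians were -0.14, -0.16 and -0.06, with 9 of 12, 14 of 17 and 5 of 8 genes below control, and -0.05, -0.04 and -0.04 without atorvastatin 2. In rosuvastatin hearts the classes had medians of both signs: the median was -0.07 over the basement membrane genes with 9 of 12 below control, 0.06 over the interstitial genes with 6 of 17 below, and 0.12 over the remodelling genes with 2 of 8 below. Without rosuvastatin 3 these medians were -0.09, -0.03 and 0.05. Pitavastatin hearts lay within 0.05 of control in the median of every class, at 0.01, -0.04 and -0.03. Centring each array on its median over all probe sets put the basement membrane median at 0.01 in pravastatin and 0.31 in rosuvastatin hearts, where it put the median of all tested probe sets at 0.08 and 0.36. Under that scaling 1 of the 41 genes lay below control in rosuvastatin hearts, against 18 under the deposited scaling. The median of the 41 genes in pitavastatin hearts also changed sign, to 0.0087. Relative to the median of all tested probe sets, the 41 genes were at -0.02, -0.09, 0.06 and -0.07 in pitavastatin, pravastatin, rosuvastatin and atorvastatin hearts as deposited, a distance that centring cannot alter. With quantile normalization, which can alter it, they were at -0.04, -0.14, 0.01 and -0.11. The growth factor class, with 4 genes, had medians of 0.02, 0.04, 0.19 and 0.07 in pitavastatin, pravastatin, rosuvastatin and atorvastatin hearts.

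The class averages of single mice show how far these medians stand from the spread. The remodelling average was 9.34, 9.29, 9.30 and 9.35 in pravastatin hearts, against 9.52, 9.53, 9.46 and 9.28 in control hearts. Control mouse 4 lay as low as the pravastatin mice, and the other 3 control mice lay above all of them. The interstitial average was 10.42, 10.21, 10.26 and 10.21 in atorvastatin hearts, against 10.49, 10.30, 10.41 and 10.55 in control hearts. The groups overlapped. The basement membrane average minus the interstitial average was -0.15, -0.08, -0.09 and -0.19 in rosuvastatin hearts, against -0.26, 0.02, -0.01 and -0.05 in control hearts. Control mouse 1 was lower than every rosuvastatin mouse, so the parting of these classes in rosuvastatin hearts lay within the spread of the controls. Without rosuvastatin 3, 23 of the 41 genes lay below control in rosuvastatin hearts and the median difference was -0.03.

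**Figure D1:**
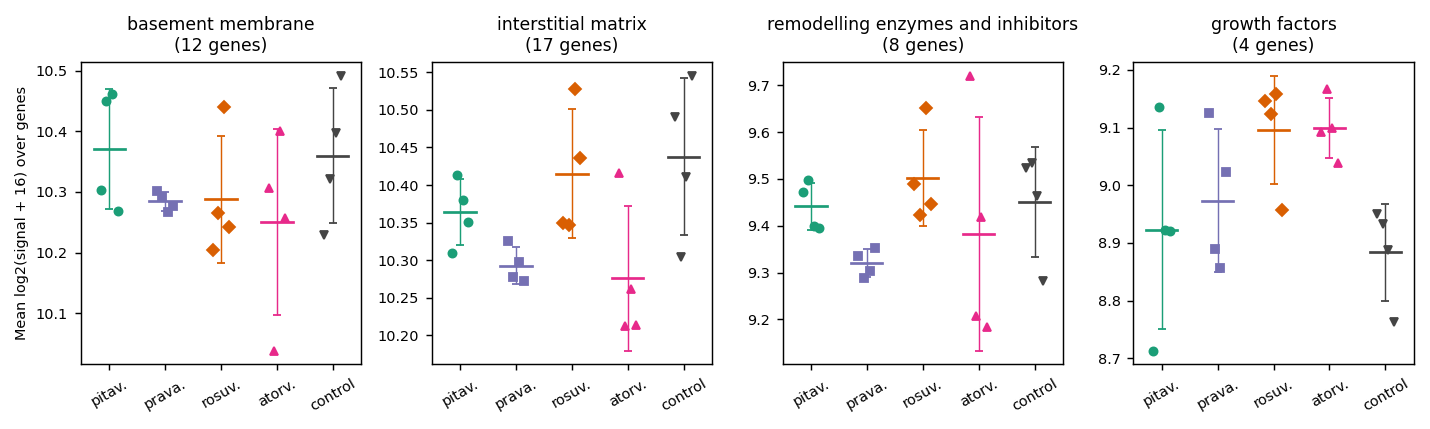
Average level of each gene class in each mouse, as mean log2(signal + 16) over the genes of the class, with group means as lines and SDs as bars (n = 4 per group). The pravastatin points lie close together in the first 3 panels, and the rosuvastatin and atorvastatin points of the growth factor panel all lie above the control points. The lowest rosuvastatin point is at 8.957 and the highest control point at 8.950. In atorvastatin hearts Ccn2 differed by 0.76 and the other growth factors by -0.04 to 0.07.

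In the pravastatin comparison 3 of the 41 genes had a difference below control and 1 above it with an unadjusted p under 0.05. Among all probe sets 1.06% were lower and 2.88% higher by that criterion. In atorvastatin hearts 6 genes were lower and 1 higher by the same criterion, where 1.65% and 2.91% of all probe sets were. In rosuvastatin hearts 1 was lower and 2 higher, against 6.96% and 4.01% of all probe sets. In pitavastatin hearts 1 was lower and none higher, against 0.906% and 1.03%. Over the mean of the 4 statins 4 genes were lower and none higher, against 0.906% and 2.14%. None of these genes passed the adjusted threshold, and the lowest adjusted p of a matrix gene was 0.9999, 0.685, 0.452 and 0.769 in the pitavastatin, pravastatin, rosuvastatin and atorvastatin comparisons. A test of any difference among the 5 groups had an unadjusted p under 0.05 for 7 of the 41 genes, against 6.24% of all probe sets, and none passed adjustment (lowest adjusted p 0.591, for Loxl1). Among the 4 statin groups alone the count was again 7 of 41, against 7.58% of all probe sets. Among all 22518 probe sets, 0 passed in each statin comparison by limma, and 1 (0.00444%) passed the test over the 5 groups. Groups that did not overlap at all were rare. Pitavastatin hearts had no such matrix gene, against 0.924% of all probe sets higher and 0.764% lower. Pravastatin hearts had 1 lower, Loxl1 (1.03% of all), and none higher (1.92%). Rosuvastatin hearts had 2 higher, Timp3 and Tgfb3 (1.87%), and none lower (2.66%). Atorvastatin hearts had 1 higher, Ccn2 (0.799%), and 1 lower, Col6a3 (0.573%).

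**Figure D2:**
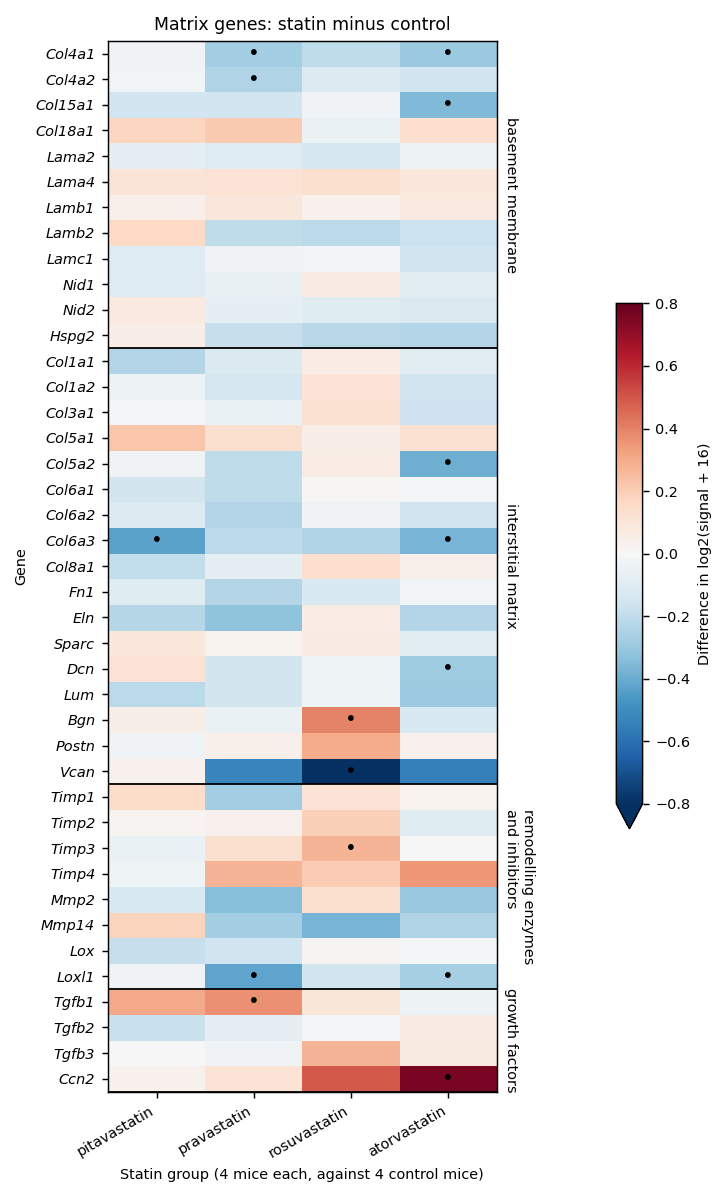
Difference from control of each of the 41 measured genes (rows, by class) in each statin group (columns), in log2 units, blue below and red above control. Dots mark an unadjusted p under 0.05, and no gene passed after adjustment. The Vcan cell in rosuvastatin hearts (-1.32) lies beyond the end of the colour scale.

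Among basement membrane genes, the collagen IV pair and collagen XV gave the widest differences. Col4a1 encodes the chain that makes up most of the type IV network. It had 12.47, 12.36, 12.48 and 12.28 in pravastatin hearts, 12.40, 12.07, 12.55 and 12.44 in atorvastatin hearts, and 12.47, 12.63, 12.79 and 12.77 in control hearts. The lowest control mouse lay within both statin groups, and the other 3 control mice lay above all 8 of those mice. The difference was -0.27 (SE 0.10, adjusted p = 0.992) in pravastatin hearts. In atorvastatin hearts it was -0.30 (SE 0.10, adjusted p = 0.964), and -0.20 without atorvastatin 2. Rosuvastatin hearts, at 12.34, 12.36, 12.65 and 12.49, differed from control by -0.20 (SE 0.10). Pitavastatin hearts, at 12.58, 12.71, 12.67 and 12.57, lay inside the control range with a difference of -0.03. A second, dimmer Col4a1 probe set had the same sign in all 4 comparisons, with -0.24 in pravastatin and -0.19 in atorvastatin hearts.

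Its partner chain Col4a2 had 12.71, 12.55, 12.55 and 12.30 in pravastatin hearts, against 12.68, 12.79, 12.77 and 12.84 in control hearts. Pravastatin mouse 1 lay within the control range and the other 3 lay below it, a difference of -0.24 (SE 0.11, adjusted p = 0.992). In atorvastatin hearts it was at -0.15 (SE 0.11), where atorvastatin 2 was at 12.28 and the other 3 mice were at 12.70 to 12.75, and at -0.04 without atorvastatin 2. Rosuvastatin and pitavastatin hearts had Col4a2 differences of -0.11 and -0.02 (SE 0.11 each).

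Col15a1 encodes collagen XV, which ties basement membranes of capillaries and muscle fibres to the surrounding collagen. Its values were 9.89, 9.62, 9.94 and 9.72 in atorvastatin hearts, against 10.09, 9.90, 10.27 and 10.32 in control hearts. Control mouse 2 lay among the upper atorvastatin mice and the other 3 controls lay above them all. The difference was -0.35 (SE 0.10, adjusted p = 0.769), the smallest p of any matrix gene in atorvastatin hearts. Pitavastatin and pravastatin hearts both differed by -0.15 (SE 0.10). Rosuvastatin hearts, at 9.96 to 10.26, differed by -0.03.

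The laminins, trimers that anchor cells to the sheet, differed less. Lama4, a chain found in vessel basement membranes, was 0.09 to 0.13 above control in all 4 statin groups (SE 0.12), and 0.19 in atorvastatin hearts without atorvastatin 2. Lamb2, the beta chain of mature muscle laminin, was 0.16 above control in pitavastatin hearts and -0.20, -0.22 and -0.17 from control in pravastatin, rosuvastatin and atorvastatin hearts (SE 0.15, and -0.08 in atorvastatin hearts without atorvastatin 2). Its values were 10.36 to 10.52 in pitavastatin, 9.93 to 10.15 in pravastatin and 9.76 to 10.30 in rosuvastatin hearts. The control mice spanned 9.81 to 10.57. Lama2, the muscle laminin alpha chain, lay -0.04 to -0.14 from control. Lamb1 lay 0.04 to 0.09 (-0.08 in rosuvastatin hearts without rosuvastatin 3) and Lamc1 -0.02 to -0.15 from control across the 4 groups.

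Nid1 and Nid2 encode nidogens, which link laminin to collagen IV. Their differences ran from -0.10 to 0.07 for Nid1 and from -0.12 to 0.08 for Nid2. Nid1 had the narrowest confidence interval of the matrix genes, 0.15 to either side, while a dim second probe set of Nid1 was at -0.66 (SE 0.30) in pravastatin hearts. Hspg2, the gene of the heparan sulfate proteoglycan perlecan, lay 0.05 above control in pitavastatin hearts. In pravastatin, rosuvastatin and atorvastatin hearts it was at -0.18, -0.22 and -0.24 (SE 0.17), with -0.37 in rosuvastatin hearts without rosuvastatin 3. Col18a1, whose collagen carries the endostatin fragment, was among the dimmer genes and had differences of -0.05 to 0.21 (SE 0.27). Its highest difference was in pravastatin hearts, where a second Col18a1 probe set gave -0.40 (SE 0.17).

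**Figure D3:**
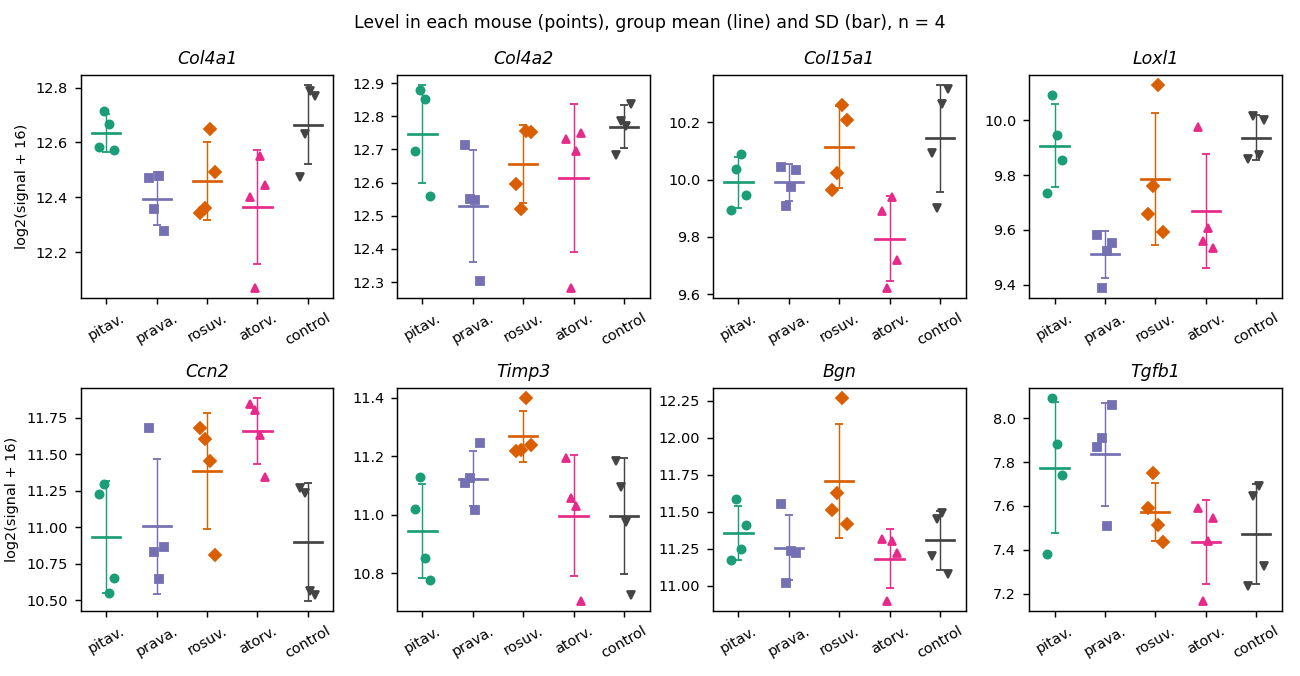
Level of 8 matrix genes in each mouse, as log2(signal + 16), with the group mean as a line and the SD as a bar (n = 4 per group). Loxl1 in pravastatin hearts lies wholly below control, and Timp3 in rosuvastatin hearts and Ccn2 in atorvastatin hearts lie wholly above it. The other panels show statin mice within the control range in every group.

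The fibrillar collagens of types I and III gave no difference with an unadjusted p under 0.05 by their brightest probe sets. Col1a1, a chain of type I collagen, had 11.72, 11.84, 11.59 and 11.58 in pitavastatin hearts. It had 11.77, 11.90, 11.77 and 11.77 in pravastatin, 12.00, 11.70, 12.15 and 12.06 in rosuvastatin and 12.20, 11.57, 11.75 and 11.76 in atorvastatin hearts. The control hearts, at 12.25, 11.52, 11.86 and 12.03, spanned the whole of these ranges. The differences of -0.23, -0.11, 0.06 and -0.09 (SE 0.14) were within the spread of the controls. The second Col1a1 probe set gave wider differences of -0.38 (unadjusted p = 0.0201 by limma) in pravastatin and -0.43 (unadjusted p = 0.00941 by limma) in atorvastatin hearts, with -0.10 in pitavastatin and 0.05 in rosuvastatin hearts (SE 0.15), so the 2 readings of Col1a1 differ in size.

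Col1a2, the other type I chain, had 10.87, 10.84, 11.34 and 10.97 in rosuvastatin hearts, against 10.79, 10.97, 10.92 and 10.88 in control hearts. The highest value was that of rosuvastatin 3, and the difference was 0.11 (SE 0.10), and -0.0002 without that mouse. Pravastatin hearts, at 10.71, 10.67, 10.80 and 10.84, differed by -0.14 and atorvastatin hearts, at 10.82, 10.67, 10.87 and 10.56, by -0.16 (SE 0.10 each). Pitavastatin hearts, at 10.76, 10.98, 10.93 and 10.73, differed by -0.04.

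Col3a1, the type III collagen of distensible tissue, had 11.75, 11.86, 12.49 and 11.92 in rosuvastatin hearts and 11.78, 11.57, 11.93 and 11.59 in atorvastatin hearts. In control hearts it had 11.81, 11.72, 11.92 and 12.09. Rosuvastatin 3 was again the highest mouse, without which the rosuvastatin difference was -0.04, and both groups overlapped control. The differences were 0.12 in rosuvastatin and -0.17 in atorvastatin hearts, with -0.05 in pravastatin and -0.01 in pitavastatin hearts (SE 0.13).

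Postn, periostin, a matrix protein that activated fibroblasts secrete after injury, had 9.51, 9.19, 10.44 and 9.11 in rosuvastatin hearts, against 9.60, 8.89, 9.05 and 9.51 in control hearts. Only rosuvastatin 3 exceeded the control range, and the difference was 0.30 (SE 0.23, adjusted p = 0.641), and 0.0079 without it. In pitavastatin, pravastatin and atorvastatin hearts Postn lay at -0.03, 0.04 and 0.03.

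Col5a2, a chain of the type V collagen that sets fibril width, had 9.02 to 9.52 in atorvastatin hearts, against 9.35 to 9.82 in control hearts. The groups overlapped in part and the difference was -0.39 (SE 0.15, adjusted p = 0.964). A second probe set of Col5a2 gave -0.27 (SE 0.17). The other type V chain, Col5a1, lay 0.06 to 0.22 above control in the 4 groups by its brightest probe set (SE 0.15), and 0.02 above it in atorvastatin hearts without atorvastatin 2. Its second probe set, of about the same signal, lay below control in all 4 groups, at -0.08, -0.37, -0.08 and -0.34 in pitavastatin, pravastatin, rosuvastatin and atorvastatin hearts (SE 0.17), so the direction of Col5a1 was not settled.

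Collagen VI forms beaded filaments between the fibrils and the cell surface. Its chain gene Col6a3 had 8.81, 8.87, 8.74 and 8.89 in atorvastatin hearts, against 9.02, 8.99, 9.37 and 9.42 in control hearts. All 4 atorvastatin mice lay below all 4 control mice, as was so for 0.573% of all probe sets, and the difference was -0.37 (SE 0.18, adjusted p = 0.964). Pitavastatin hearts had 9.23, 8.77, 9.01 and 8.08, a difference of -0.43 (SE 0.18, adjusted p = 0.9999) that was -0.20 without pitavastatin 4. For the other chains in atorvastatin hearts, Col6a1 was at -0.01 (SE 0.10) and Col6a2 at -0.16 (SE 0.13), and at -0.04 without atorvastatin 2. In pravastatin hearts Col6a1, Col6a2 and Col6a3 were at -0.20, -0.23 and -0.21.

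The small leucine-rich proteoglycans bind collagen fibrils and trim their growth. Bgn, biglycan, had 11.51, 11.63, 12.27 and 11.42 in rosuvastatin hearts, against 11.20, 11.45, 11.49 and 11.08 in control hearts. Rosuvastatin 3 was the highest mouse, 2 others lay just above the control range and rosuvastatin 4 lay within it. The difference was 0.40 (SE 0.16, adjusted p = 0.452), and 0.21 without rosuvastatin 3. The other Bgn probe sets gave 0.19 and 0.21. Pitavastatin, pravastatin and atorvastatin hearts had Bgn differences of 0.05, -0.05 and -0.12, the last -0.03 without atorvastatin 2.

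Dcn, decorin, had 12.17 to 12.51 in atorvastatin hearts, against 12.44 to 12.85 in control hearts, a difference of -0.29 (SE 0.11, adjusted p = 0.964). A second, dimmer Dcn probe set gave -0.61 in atorvastatin and -0.81 in rosuvastatin hearts (SE 0.37), where the brightest was at -0.03. In pitavastatin hearts, at 12.61 to 12.95, Dcn was 0.11 above control. Lum, lumican, the neighbour of Dcn on chromosome 10, was at -0.29 in atorvastatin hearts (SE 0.17, and -0.17 without atorvastatin 2) and at -0.21, -0.15 and -0.03 in pitavastatin, pravastatin and rosuvastatin hearts.

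Vcan, the large proteoglycan versican, showed the widest spread of the list. It had 8.39, 9.36, 5.28 and 9.29 in rosuvastatin hearts, against 9.62, 9.16, 9.19 and 9.61 in control hearts. The difference of -1.32 (SE 0.63, adjusted p = 0.452) rested on rosuvastatin 3, the dimmest array, and was -0.38 (SE 0.38) without it. The 4 other tested Vcan probe sets gave -1.23, -0.58, -0.35 and -0.18 in the same comparison. Pravastatin hearts had 7.996, 9.08, 8.80 and 9.59 and atorvastatin hearts 8.34, 9.98, 8.31 and 8.78. These Vcan differences were -0.53 and -0.55 (SE 0.63), the second -0.92 without atorvastatin 2, while pitavastatin hearts, at 9.24, 9.29, 9.17 and 10.01, were at 0.03.

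The remaining interstitial genes gave no difference past the threshold. Eln, elastin, was at -0.23, -0.32, 0.06 and -0.24 in pitavastatin, pravastatin, rosuvastatin and atorvastatin hearts (SE 0.17), with -0.11 in rosuvastatin hearts without rosuvastatin 3. Fn1, fibronectin, the early scaffold of new matrix, was at -0.10, -0.24, -0.12 and -0.02 in the same order (SE 0.16). Sparc, a collagen-binding secreted protein, stayed between -0.09 and 0.08 (SE 0.09). Col8a1, a short-chain collagen of vessel walls, stayed between -0.20 and 0.14 (SE 0.22). Without the dimmest and brightest mice Col8a1 was at 0.0034 in rosuvastatin and 0.17 in atorvastatin hearts.

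Among the enzymes, the lysyl oxidase family member Loxl1, which cross-links elastic fibres, gave the smallest p of any matrix gene in the pravastatin comparison. It had 9.58, 9.39, 9.52 and 9.55 in pravastatin hearts, against 9.86 to 10.02 in the 4 control hearts. All 4 pravastatin mice lay below all 4 control mice, which 1.03% of all probe sets also did, and no other matrix gene did so with pravastatin. The difference was -0.42 (SE 0.12, adjusted p = 0.685), and leaving out single mice moved it between -0.45 and -0.38. Atorvastatin hearts, at 9.98, 9.56, 9.61 and 9.53, were at -0.27 (SE 0.12), with atorvastatin 1 inside the control range. Rosuvastatin hearts, at 9.66, 9.76, 10.13 and 9.59, were at -0.15 (-0.27 without rosuvastatin 3) and pitavastatin hearts, at 9.73, 10.09, 9.95 and 9.86, at -0.03. A second, dim Loxl1 probe set gave -0.12 (SE 0.25) in pravastatin and -0.24 in atorvastatin hearts. Lox, the founding member of the family, was at -0.18, -0.16, 0.02 and -0.01 in pitavastatin, pravastatin, rosuvastatin and atorvastatin hearts (SE 0.13).

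The gelatinase gene Mmp2 was at -0.34 in pravastatin and -0.31 in atorvastatin hearts (SE 0.19, and -0.087 without atorvastatin 2), and at -0.12 and 0.13 in pitavastatin and rosuvastatin hearts, the second 0.02 without rosuvastatin 3. Its second probe set gave -0.07 in pravastatin and -0.13 in atorvastatin hearts (SE 0.18). Its membrane-bound activator Mmp14, a dim gene, was at 0.18 in pitavastatin hearts. In pravastatin, rosuvastatin and atorvastatin hearts Mmp14 was at -0.27, -0.37 and -0.24 (SE 0.22).

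Timp3 encodes the TIMP that stays bound to the matrix. It had 11.22, 11.22, 11.40 and 11.24 in rosuvastatin hearts, against 11.18, 11.09, 10.98 and 10.73 in control hearts. All 4 rosuvastatin mice lay above all 4 control mice, as did 1.87% of all probe sets, although the lowest rosuvastatin and highest control mice were close. The difference was 0.27 (SE 0.11, adjusted p = 0.452), and 0.23 without rosuvastatin 3. The 2 other tested Timp3 probe sets gave 0.40 and 0.24 in the same direction. Pitavastatin hearts, at 11.02, 11.13, 10.85 and 10.78, and atorvastatin hearts, at 11.19, 11.06, 11.03 and 10.70, matched the control range, with Timp3 differences of -0.05 and 0.00. Pravastatin hearts, at 11.11, 11.12, 11.02 and 11.25, were at 0.13.

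Timp4, the TIMP most typical of the heart, had 11.62, 11.10, 11.38 and 11.61 in atorvastatin hearts, against 11.33, 11.60, 10.63 and 10.76 in control hearts. The control mice spread almost as widely as all 20 mice, and the difference of 0.35 (SE 0.19, adjusted p = 0.964) was not matched by its second probe set, at -0.02. Pravastatin hearts, at 11.30, 11.53, 11.16 and 11.43, were at 0.27 and rosuvastatin hearts, at 11.55, 11.37, 11.24 and 10.98, at 0.20. Pitavastatin hearts, at 11.34, 10.87, 11.26 and 10.73, were at -0.03. Without atorvastatin 2 the atorvastatin difference of Timp4 was 0.46. Timp2, which also helps to activate Mmp2, was at 0.02, 0.03, 0.19 and -0.10 in the pitavastatin, pravastatin, rosuvastatin and atorvastatin groups (SE 0.11). The dimmest tested Timp2 probe set gave 0.38, 0.37 and 0.37 in pravastatin, rosuvastatin and atorvastatin hearts (SE 0.16), opposite in sign to the brightest in the last. The other further Timp2 probe sets shared its brightest sign in rosuvastatin hearts, at 0.28 and 0.18, and in atorvastatin hearts, at -0.16 and -0.10. In pravastatin hearts they gave 0.03 and -0.14 (SE 0.12 and 0.13). Timp1, an inducible inhibitor and a dim gene here, had differences of -0.28 to 0.14 (SE 0.33).

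Of the growth factors, Ccn2 gave the largest positive difference of the list. It had 11.85, 11.80, 11.63 and 11.35 in atorvastatin hearts, against 11.27, 11.23, 10.56 and 10.53 in control hearts. All 4 atorvastatin mice lay above all 4 control mice, as did 0.799% of all probe sets. The difference was 0.76 (SE 0.24, adjusted p = 0.964), and 0.64 to 0.88 when single mice were left out. Rosuvastatin hearts had 11.68, 11.61, 11.45 and 10.81, a Ccn2 difference of 0.49 (SE 0.24, adjusted p = 0.457) with 3 of the 4 mice above all controls. Pitavastatin hearts, at 11.23, 11.30, 10.55 and 10.65, and pravastatin hearts, at 11.68, 10.83, 10.65 and 10.87, were at 0.03 and 0.11. In pitavastatin and control hearts alike, the mice numbered 1 and 2 were at 11.23 to 11.30 and those numbered 3 and 4 at 10.53 to 10.65. What the numbers mark is not given in the sources used here. Ccn2 was read by a single probe set, so no second reading was at hand.

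Tgfb1, the main fibrogenic form of transforming growth factor beta, had 7.87, 7.91, 7.51 and 8.06 in pravastatin hearts and 7.38, 8.09, 7.88 and 7.74 in pitavastatin hearts. The control hearts had 7.23, 7.64, 7.69 and 7.33. In each of these statin groups 3 of the 4 mice lay above all controls and 1 lay among them. The differences were 0.36 (SE 0.17, adjusted p = 0.992) in pravastatin and 0.30 (SE 0.17, adjusted p = 0.9999) in pitavastatin hearts. Rosuvastatin hearts, at 7.59, 7.75, 7.51 and 7.44, and atorvastatin hearts, at 7.59, 7.17, 7.44 and 7.54, lay at 0.10 and -0.04. Tgfb3 had 8.20 to 8.66 in rosuvastatin hearts, against 7.99 to 8.18 in control hearts, a non-overlapping difference of 0.27 (SE 0.15, adjusted p = 0.488) that was 0.18 without rosuvastatin 3, and it was between -0.03 and 0.07 in the other statin groups. Tgfb2, the remaining form, had differences of -0.18 to 0.07 (SE 0.17), the highest, in atorvastatin hearts, being -0.08 without atorvastatin 2.

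Many of the genes were read by more than 1 probe set. For 24 of the 41 genes, 34 further probe sets were bright enough to be tested. Their difference had the same sign as that of the brightest probe set for 17 of 34 in pitavastatin, 28 of 34 in pravastatin, 24 of 34 in rosuvastatin and 25 of 34 in atorvastatin hearts. Where the brightest probe set differed by more than 0.2, the sign was shared by 1 of 2, 10 of 11, 11 of 11 and 10 of 11 probe sets in the same order. By an unadjusted p under 0.05, 5 of the 34 were lower and 1 higher in pravastatin hearts (1.06% and 2.88% of all probe sets). In rosuvastatin hearts 2 were lower and 4 higher (6.96% and 4.01% of all probe sets). In atorvastatin hearts 1 was lower and 1 higher (1.65% and 2.91%). Pitavastatin hearts had none (0.906% and 1.03%), and none of the 34 passed adjustment by limma. Probe sets of 1 gene share the RNA sample and the array, so they are not separate mice.

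**Figure D4:**
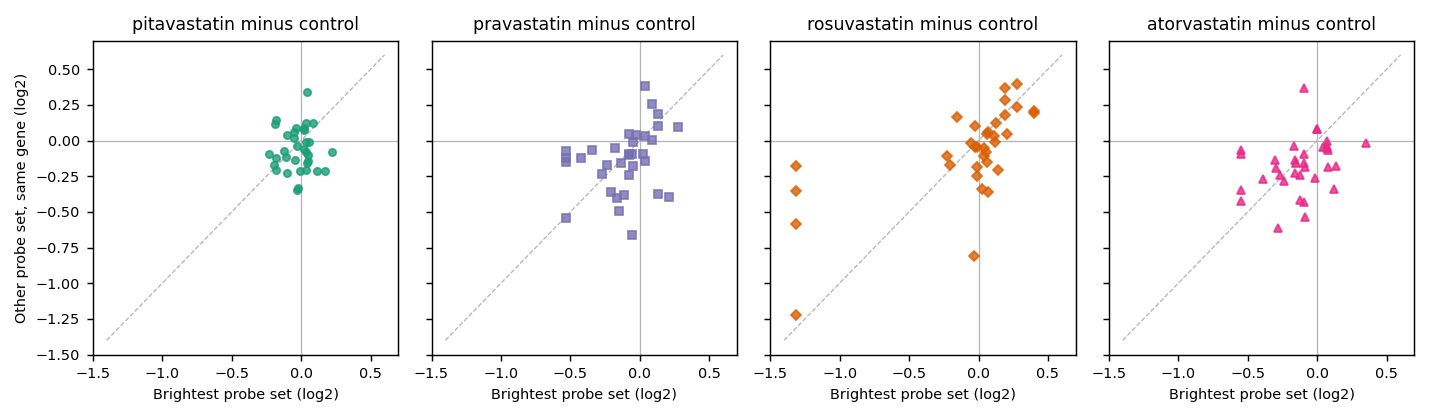
Difference from control of each further probe set (vertical axis) against that of the brightest probe set of the same gene (horizontal axis), both in log2 units, for 34 probe sets of 24 genes in each statin group. The dashed line marks equal values. The 4 points at the far left of the rosuvastatin panel are Vcan, whose probe sets differ in size but not in sign.

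Related genes were compared across the 20 mice in 6 pairs, of which 4 encode chains of 1 protein, 1 encodes the 2 nidogens and 1 a growth factor and its target. Col4a1 and Col4a2 levels varied together, with Pearson r = 0.837 (permutation p = 1e-05, adjusted p = 6e-05, the smallest that these permutations can give) and Spearman rho = 0.81 (adjusted p = 0.00012). Without atorvastatin 2 and control 3, the mice farthest from the Col4a1 median, r was 0.78. Taken as deviations from the group means, r was 0.815 (permutation adjusted p = 0.0012). Col6a1 and Col6a2, neighbours on chromosome 10, gave r = 0.716 (permutation adjusted p = 0.00138) and rho = 0.80 (adjusted p = 0.00012), and r = 0.715 within groups (adjusted p = 0.00828). Without rosuvastatin 4 and control 4 the r of this pair was 0.716.

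The other 4 pairs did not reach an adjusted p of 0.05. The type I chains Col1a1 and Col1a2, partners in 1 protein, had r = 0.314 (permutation adjusted p = 0.272) and rho = 0.19, and r = 0.468 without the 2 mice farthest from the median of Col1a1. The laminin chains Lamb1 and Lamc1 had r = 0.419 (permutation adjusted p = 0.132) and rho = 0.26, and r = 0.493 without 2 mice. Nid1 and Nid2 had r = 0.03 (permutation adjusted p = 0.899) and rho = 0.05, and r = 0.348 without 2 mice. Tgfb1 and Ccn2 had r = -0.20 (permutation adjusted p = 0.476) and rho = -0.09, and r = -0.20 without 2 mice. Array brightness is shared by both genes of a pair, and its part in these correlations was not tested.

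**Figure D5:**
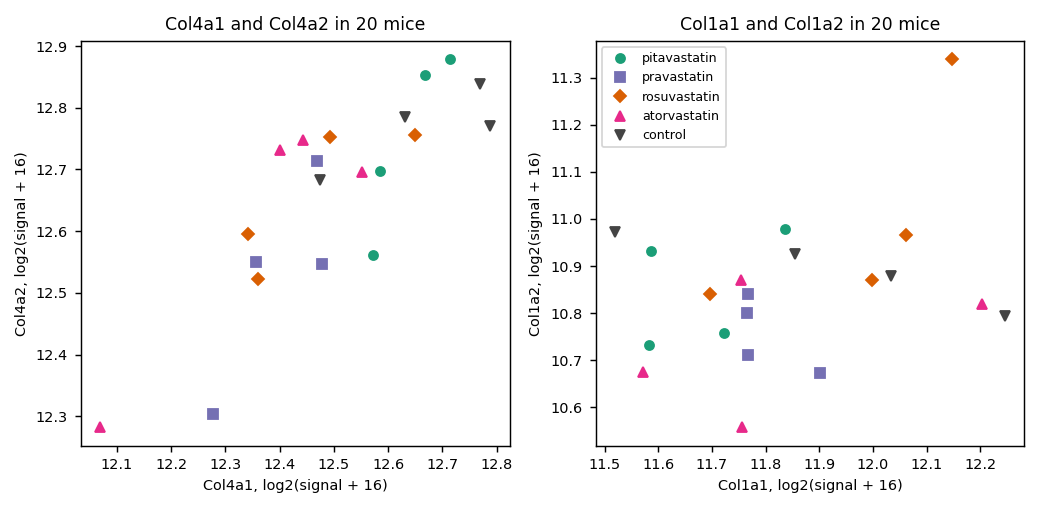
Level of Col4a2 against Col4a1 (left) and of Col1a2 against Col1a1 (right) in each of 20 mice, as log2(signal + 16). The Col4 points follow a rising line (r = 0.837) with atorvastatin 2 at its lower end, while the Col1 points scatter (r = 0.314), with rosuvastatin 3 highest in Col1a2.

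The statins were also set side by side, though their doses differed, so these values do not compare the compounds at matched exposure. No matrix gene passed an adjusted p of 0.05 in any of the 6 statin pairs, where the largest share of all probe sets to pass was 0.00888% lower in pitavastatin than in pravastatin hearts and 0.00444% lower than in rosuvastatin hearts. Dcn averaged 12.72 ± 0.16 in pitavastatin and 12.33 ± 0.16 in atorvastatin hearts (SD, n = 4 each), with a difference of 0.40 (SE 0.11, adjusted p = 0.277). Bgn averaged 11.71 ± 0.39 in rosuvastatin and 11.18 ± 0.20 in atorvastatin hearts, with a difference of 0.52 (SE 0.16, adjusted p = 0.749). Rosuvastatin 3, at 12.27, was the highest and atorvastatin 2, at 10.90, the lowest mouse of both groups. Without these mice the Bgn differences from control were 0.21 in rosuvastatin and -0.03 in atorvastatin hearts. Col15a1 averaged 10.11 ± 0.14 in rosuvastatin and 9.79 ± 0.15 in atorvastatin hearts, with a difference of 0.32 (SE 0.10, adjusted p = 0.749). Its highest and lowest mice were again rosuvastatin 3, at 10.26, and atorvastatin 2, at 9.62. Differences between statins without these mice are not given here. Ccn2 averaged 10.93 ± 0.38 in pitavastatin and 11.66 ± 0.23 in atorvastatin hearts, with a difference of -0.73 (SE 0.24, adjusted p = 0.292).

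The proteins that make, receive and report on the matrix were read from 3 further lists, in which no gene passed adjustment. Of 15 measured collagen-processing genes, 10, 9, 10 and 6 lay above control in pitavastatin, pravastatin, rosuvastatin and atorvastatin hearts, with medians of 0.07, 0.004, 0.05 and -0.11. Serpinh1, the collagen chaperone, was at -0.31 (SE 0.16) in atorvastatin hearts, and Pcolce, which speeds procollagen trimming, at 0.28 (SE 0.12) in rosuvastatin hearts. Of 15 matrix receptor genes, 4, 10, 12 and 9 lay above control in the same order, with medians of -0.03, 0.08, 0.12 and 0.05. Itga8, an integrin chain, was at 0.50 (SE 0.14, adjusted p = 0.452) in rosuvastatin hearts, and the collagen receptor kinase Ddr1 at 0.39 in rosuvastatin and 0.42 in atorvastatin hearts (SE 0.15).

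Of 15 measured receptors, signal carriers and targets of transforming growth factor beta, 6, 10, 14 and 12 lay above control, with medians of -0.01, 0.03, 0.15 and 0.07. In rosuvastatin hearts 4 of the 15 had an unadjusted p under 0.05, all higher, where 4.01% of all probe sets did. The inhibitory Smad7 was at 0.53 (SE 0.22, adjusted p = 0.452) and the co-receptor Eng at 0.36 (SE 0.15). In atorvastatin hearts Smad7 was at 0.45 (SE 0.22, adjusted p = 0.964).

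In whole ventricle, fewer cells of a type and less RNA per cell cannot be told apart, so marker lists are given beside the matrix values. Of 16 measured fibroblast markers, 9, 2, 11 and 2 lay above control in pitavastatin, pravastatin, rosuvastatin and atorvastatin hearts, with medians of 0.02, -0.09, 0.12 and -0.08. The summed signal of all 17 listed markers, 1 dim marker included, was 31411 to 32428 in pravastatin hearts, below the 33329 to 38562 of control hearts. It was 33176 to 38358 in rosuvastatin, 31761 to 39217 in atorvastatin and 32689 to 37713 in pitavastatin hearts. Gsn alone had a signal of 15416 to 23657 over all mice, so this sum rests largely on that gene. The fibroblast marker average was highest in rosuvastatin 3, at 10.02, and lowest in atorvastatin 2, at 9.29, while the other 18 mice lay between 9.49 and 9.75. The interstitial average of the same mice was 10.53 in rosuvastatin 3 and 10.21 in atorvastatin 2, where all 20 mice lay between 10.21 and 10.55, and the part of cell content in the matrix values was not tested.

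Of 14 endothelial markers, 12, 7, 10 and 9 lay above control, with medians of 0.10, -0.003, 0.08 and 0.04. Of 14 cardiomyocyte markers, 12 lay above control in pitavastatin hearts and 1 in each of the other groups, with medians of 0.13, -0.12, -0.18 and -0.13. The single mice overlapped control in every group. Their summed signal was 468248 to 538890 in pitavastatin and 376179 to 515732 in pravastatin hearts. It was 291549 to 610017 in rosuvastatin and 283121 to 646274 in atorvastatin hearts, against 419696 to 510312 in control hearts. The 4 measured activated fibroblast markers had medians of 0.05, -0.16, 0.17 and -0.05. The 5 measured smooth muscle markers had medians of 0.11, -0.15, 0.42 and 0.13, and the rosuvastatin median was the difference of Myocd itself. The summed signal of all 7 listed, 2 dim markers included, was 16570 to 17634 in rosuvastatin hearts, above the 9682 to 15919 of control hearts. Myocd, at 3776 to 8240, and Acta2, at 3194 to 9023 over all mice, made up most of this sum. By contrast, Tagln was at 350 to 1336 and Myh11 at 154 to 449. Which cells the Myocd signal came from was not tested, so neither the median nor the sum measures smooth muscle content. Medians were -0.003, 0.03, 0.02 and 0.04 over 6 pericyte markers and 0.003, -0.04, 0.08 and -0.11 over 11 macrophage markers. Of 7 epicardial markers 1, Wt1, was bright enough to be tested, at -0.07, -0.20, 0.12 and 0.26. No marker of these lists passed adjustment, and their part in the matrix differences was not tested.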

How the data were processed

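The deposited values are MAS5 signals, per the submitters' processing notes, in which the version is not stated. Each array was scaled by the authors to a common trimmed mean: the 2% trimmed mean intensity of every deposited array was 500.00. RNA (100 ng) was amplified with the NuGEN Ovation kit, per the labels' protocols. The matrix genes and other lists were chosen with earlier results of these data known.

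Affymetrix's own 64 control probe sets were set aside, and the brighter 50% of 45037 probe sets by mean log2(signal + 16) was tested, a mean of about 81.8 in signal. Of all probe sets 34945 had 1 gene symbol, 932 several and 9160 none. A gene was read by its probe set with the highest mean over 20 arrays. limma 3.58.1 in R 4.3.3 fitted 5 group means to log2(signal + 16), with 15 residual degrees of freedom, a trended prior and Benjamini-Hochberg adjustment, and was tested on simulated data. Values of single mice are given for members among the 3 smallest p in a statin comparison or in the test over 5 groups, and for a few chosen genes. For some of these genes they are given in part of the groups only, with the difference or range in the others. The labels name separate mice, with 1 array each, and the number of arrays limits the precision. An exact permutation test of 4 against 4 mice cannot give a p below 0.0286. Alternatives covered the pseudocount, the filter on dim probe sets, quantile normalization, centring, the prior, the replicate block, the median signal as a covariate and each mouse left out.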

Additional observations from a re-analysis of the deposited data

Results flagged for a closer look

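Among the 15 genes with values of single mice in the text, 75 sets of 4 mice were searched for a mouse far from the other 3 (by Dixon's 95% critical value), and 5 were found. Chance alone picks out about 1 in 20 such sets. Col1a1 was at 11.90 in pravastatin 2, where the other 3 mice were all at 11.77. Col4a2 was at 12.28 in atorvastatin 2, against 12.70 to 12.75 in the other atorvastatin mice. Loxl1 was at 9.98 in atorvastatin 1, against 9.53 to 9.61 in the others. Vcan was at 10.01 in pitavastatin 4, against 9.17 to 9.29 in the others. Timp3 was at 11.40 in rosuvastatin 3, against 11.22 to 11.24 in the others. Atorvastatin 2 was the brightest and rosuvastatin 3 the dimmest array of the series.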

How the results depend on the processing

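No matrix gene passed adjustment under any alternative run in any statin comparison. Centring each array on its median over all probe sets put the median of all tested probe sets at 0.36 in rosuvastatin hearts. The median of the matrix genes then became -0.011 in pravastatin, 0.42 in rosuvastatin and -0.0093 in atorvastatin hearts, and 0.074 for the mean of the statins. Centring moves all probe sets alike. Relative to all tested probe sets, the rosuvastatin median of 0.06 was 0.0098 with quantile normalization, -0.02 with array median signal as covariate and 0.02 with 1 probe set per gene. Centring on the tested probe sets, chosen after seeing the data, gave -0.081 in pravastatin hearts, and the median signal as a covariate gave -0.043 in rosuvastatin hearts. Leaving out single mice moved the median between -0.13 and -0.09 in pravastatin, -0.03 and 0.06 in rosuvastatin, and -0.18 and -0.04 in atorvastatin hearts. Matrix genes with an unadjusted p under 0.05 numbered 2 to 8 in pravastatin hearts (8 without control 2, 2 without pravastatin 2 or 4), 0 to 4 in pitavastatin hearts (4 without control 2), 1 to 4 in rosuvastatin hearts (1 without control 4) and 3 to 9 in atorvastatin hearts (3 without atorvastatin 4) when single mice were left out. Under the other alternatives they numbered 0 to 7 in pravastatin, 0 to 1 in pitavastatin, 1 to 5 in rosuvastatin and 1 to 10 in atorvastatin hearts. Shares of all probe sets by this criterion are not given for these settings, so the counts do not set the matrix genes apart. Over all probe sets, 0 to 23 passed in pravastatin, 0 to 17 in rosuvastatin and 0 to 18 in atorvastatin hearts, with each highest count without control 1, and 6 passed in pravastatin hearts with the covariate. The test over 5 groups called 0 to 49 probe sets without single mice (49 without control 1), 0 after centring, without the trend or with 1 probe set per gene, 2 without rosuvastatin 3 and atorvastatin 2 together, and 6 with the replicate block, against 1. With the replicate block, 5 rather than 3 matrix genes had an unadjusted p under 0.05 in rosuvastatin hearts. For Ccn2 in atorvastatin hearts the replicate block gave an adjusted p of 0.261 by limma. Deviations of same-numbered mice correlated at -0.54 to 0.69 (median 0.08) and those of differently numbered mice at -0.76 to 0.74 (median -0.04), and 7 of 20 arrays matched their own number best. The cause of these shifts was not tested. Vcan had the widest error of the list.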
